A study of Mus musculus with 64 samples.

Results

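The Bcl2 family decides at the mitochondrion whether a cell lives or dies. Its anti-apoptotic proteins hold back the pore-forming effectors, and BH3-only proteins release that hold or engage the effectors themselves. Mature B cells are known to depend on Mcl-1 and Bcl-2, and activated B cells on A1 and Bcl-xL as well, while Bim is the BH3-only protein best known for removing B cells. The genes described here are 9 of the 34324 protein-coding and lncRNA genes of the annotation, taken by name. They are the anti-apoptotic genes Bcl2, Bcl2l1 (Bcl-xL), Mcl1 and Bcl2a1b (A1), the BH3-only genes Bcl2l11 (Bim), Bbc3 (Puma) and Pmaip1 (Noxa), and the effector genes Bax and Bak1.

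Chromatin was profiled by CUT&RUN, an assay that directs a nuclease to an antibody's target in intact nuclei and sequences the released DNA. The cells were splenic CD23+ B cells of female F1 mus x cast mice, pups of C57BL/6 mothers with a heterozygous Xist deletion and M. m. castaneus fathers. They were stimulated with 1 µM CpG, a TLR9 ligand, for 12 or 24 h, or left unstimulated (0 h). The labels give neither the ages nor which animals carried the deletion. The 61 libraries with a peak list covered H3K27me3 (3, 3 and 4 libraries at 0, 12 and 24 h), H2AK119Ub (4, 3 and 5), H3K9me3 (4 at each time), and H3K27ac, Suz12 and Ring1B (3 at each time). H3K27me3 and H2AK119Ub are the repressive marks laid down by the Polycomb complexes, of which Suz12 and Ring1B are subunits. H3K9me3, read as H3K29me3 in the sample titles and as H3K9me3 in the antibody labels, marks heterochromatin and H3K27ac marks active promoters and enhancers. The 3 IgG samples were not analysed here.

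Every value below is the percent of a gene region, the gene with 2 kb on each side (mm10), that was covered by peaks of the Cast allele in 1 library. A value of 0% means that no peak touched the region. Segments given below are cut at the edges of the region, and their peaks can reach beyond it. An absent mark and too few Cast-assigned reads cannot be told apart there, and sequencing depth is unknown. List length and coverage grew with stimulation for the 4 histone marks. Lists of H3K27ac held 9556 to 15896 peaks at 24 h, against 1450 to 5277 at 0 h, and those of H2AK119Ub 10964 to 24635 at 24 h, against 2100 to 4346 at 0 h. Those of H3K27me3 held 20454 to 26767 at 24 h, against 2771 to 7561 at 0 h. Lists of Suz12 and Ring1B were called with another setting than those of the histone marks. Their length is not read here as a measure of occupancy. Among the libraries, replicate 1 of H3K27ac at 0 h stood apart with 1450 peaks, beside 4748 and 5277 in the other libraries of that time. Replicate 3 of H3K27me3 at 0 h covered 3.84% of the autosomes, beside 1.21% and 1.29%, and replicate 1 of Ring1B at 12 h had 18147 peaks, beside 26158 and 28917. Of 10 B cell marker genes, 9, 10 and 9 carried H3K27ac in most libraries at 0, 12 and 24 h, and none carried H3K27me3 in any library. The same count was 1, 2 and 2 of 8 T cell markers, 0, 0 and 2 of 8 myeloid markers, 0, 1 and 1 of 4 NK cell markers, and 0 of 5 erythroid markers at each time. The part of other cell types in the results was not tested.

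The 9 genes differed in which marks they carried. The samples are bulk cells, in which a mark on fewer cells and a weaker mark on each cell cannot be told apart. H3K27ac lay in at least 3 of 9 libraries on all 9 genes, whereas 34% of all protein-coding genes met that count. H3K27me3 lay in at least 3 libraries on 3 of the 9 genes (36% of protein-coding genes), and H2AK119Ub on 6 (44.2%). No H3K9me3 peak touched any of the 9 regions in any of the 12 libraries, and 5.81% of protein-coding genes had that mark in at least 3. Suz12 was present by the same count on 7 genes (60.4%) and Ring1B on 8 (60%). Mcl1 and Bcl2a1b had neither H3K27me3 nor H2AK119Ub in any library, and Bcl2, Bax, Bak1 and Bbc3 had no H3K27me3 in any.

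**Figure D1:**
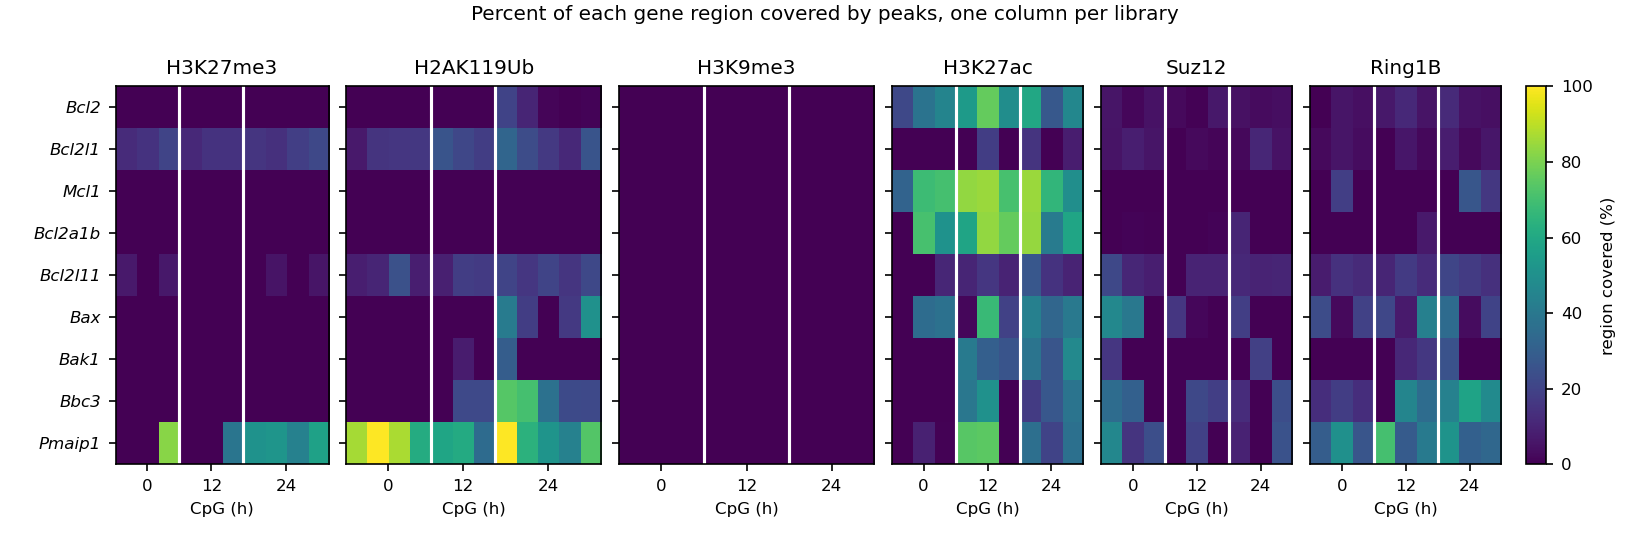
Percent of each gene region covered by peaks (colour), with 1 column per library grouped by hours of CpG, 1 row per gene and 1 panel per antibody. H3K27ac is highest on Bcl2, Mcl1 and Bcl2a1b, H2AK119Ub is found at all times on Bcl2l1, Bcl2l11 and Pmaip1 and in all 24 h libraries on Bbc3, and the H3K9me3 panel is empty.

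Across the 6 antibodies, 1 gene passed the test over the 3 times. Bbc3 rose in H2AK119Ub, the limma test being adjusted over all genes tested (adjusted p = 0.0271). The count for H2AK119Ub was thus 1 of the 6 members tested, beside 33.2% of all 13842 tested genes, or 31% that were called higher at 24 h than at 0 h. For H3K27me3 it was 0 of 3 members (none at an unadjusted p under 0.05), beside 56.9% of 11912 genes. For H3K27ac it was 0 of 9 (1 at an unadjusted p under 0.05, Bak1), beside 1.46% of 9341 genes. For Suz12 it was 0 of 7 (0 unadjusted), beside 0% of 18046 genes, of which 1581 had an unadjusted p under 0.05. For Ring1B it was 0 of 8 (1 unadjusted, Bbc3), beside 0.085% of 17638 genes. The median difference between 24 and 0 h over the tested members was 1.64 percentage points for H3K27me3, beside 28.9 over all tested genes. It was 7.61 beside 18 for H2AK119Ub, 14.9 beside 12.0 for H3K27ac, -2.91 beside -1.22 for Suz12 and 5.38 beside 1.04 for Ring1B. Scaling each library by its covered share of the autosomes moved the median over all genes to 5.36 for H3K27me3, 9.16 for H2AK119Ub and 5.10 for H3K27ac. The members' medians became -12.7 for H3K27me3, -7.71 for H2AK119Ub and 5.28 for H3K27ac, so that those of both Polycomb marks changed sign.

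The promoters behind these values were of unequal composition. Of the 9 genes, 8 had an entry among the RefSeq promoters of GRCm38.p6, each of 300 bases, from 250 before to 50 after a start site. Over all 32851 promoters the median number of CG dinucleotides was 7, with quartiles of 3 and 20. Bcl2 had 44, Mcl1 33, Bbc3 34, 30 and 39 at its 3 starts, Bcl2l11 27 and 38 at its 2 starts, Bcl2l1 22, 14 and 1, Bax 19, Bak1 11 and Bcl2a1b 4. Shown here are the promoter with fewest CG among genes acetylated at 0 h (Bcl2a1b), one acetylated and free of H2AK119Ub (Mcl1), one under both kinds of mark (Bcl2l11), that of the gene that passed the test (Bbc3), and one that had H3K27ac in every stimulated library (Bak1). Capitals mark each CG.
Bcl2a1b, chr9:89199023-89199322, plus strand: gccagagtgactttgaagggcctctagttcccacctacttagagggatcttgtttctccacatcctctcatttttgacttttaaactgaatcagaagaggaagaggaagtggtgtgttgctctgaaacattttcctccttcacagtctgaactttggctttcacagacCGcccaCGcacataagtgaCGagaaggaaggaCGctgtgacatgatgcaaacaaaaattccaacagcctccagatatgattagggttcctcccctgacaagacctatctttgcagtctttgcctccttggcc
Mcl1, chr3:95658471-95658770, plus strand: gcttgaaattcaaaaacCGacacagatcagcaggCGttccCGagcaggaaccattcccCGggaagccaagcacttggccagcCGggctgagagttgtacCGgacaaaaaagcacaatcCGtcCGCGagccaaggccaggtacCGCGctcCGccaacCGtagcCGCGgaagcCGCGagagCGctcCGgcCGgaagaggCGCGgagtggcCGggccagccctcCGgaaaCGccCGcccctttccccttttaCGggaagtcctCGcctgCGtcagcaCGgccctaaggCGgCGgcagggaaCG
Bcl2l11, chr2:128125788-128126087, plus strand: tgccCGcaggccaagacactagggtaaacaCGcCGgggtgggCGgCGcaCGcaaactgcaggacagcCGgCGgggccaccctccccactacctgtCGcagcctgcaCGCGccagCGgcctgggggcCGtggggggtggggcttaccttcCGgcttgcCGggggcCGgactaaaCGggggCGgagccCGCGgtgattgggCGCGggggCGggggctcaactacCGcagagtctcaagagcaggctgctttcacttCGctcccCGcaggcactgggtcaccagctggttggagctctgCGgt
Bbc3, chr7:16309333-16309632, plus strand: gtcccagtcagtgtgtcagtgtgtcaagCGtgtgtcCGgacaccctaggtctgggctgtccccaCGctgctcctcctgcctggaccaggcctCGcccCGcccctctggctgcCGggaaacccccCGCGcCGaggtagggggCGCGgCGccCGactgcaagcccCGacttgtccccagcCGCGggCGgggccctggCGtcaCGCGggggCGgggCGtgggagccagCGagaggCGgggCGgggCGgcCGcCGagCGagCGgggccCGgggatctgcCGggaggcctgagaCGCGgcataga
Bak1, chr17:27028578-27028877, minus strand: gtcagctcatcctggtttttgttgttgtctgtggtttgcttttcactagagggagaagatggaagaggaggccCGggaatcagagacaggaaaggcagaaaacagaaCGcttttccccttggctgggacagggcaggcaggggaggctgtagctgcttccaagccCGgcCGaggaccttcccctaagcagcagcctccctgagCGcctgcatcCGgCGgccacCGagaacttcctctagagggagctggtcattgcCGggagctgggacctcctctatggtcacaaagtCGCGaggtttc
The motif GAGGAAGT, a form of the PU.1 site, was found on either strand in 3.20% of all promoters, and once each in those of Bcl2a1b and Bak1, with no other member promoter holding it. A longer NF-kB motif, also searched on both strands, was found in 1.63% of all promoters. It occurred once each in the printed promoters of Mcl1 and Bbc3 and in the second promoter of Bcl2l1, and not in that of Bcl2a1b. A match is a string of letters and not a measured site.

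Among the anti-apoptotic genes, Bcl2 (chr1:106538176-106714290, minus strand, 176 kb) was acetylated at every time. Its H3K27ac coverage was 21.5%, 38.1% and 45.1% at 0 h, 54.5%, 76.4% and 49.1% at 12 h, and 59.9%, 27.4% and 46.2% at 24 h. Every 12 h library lay above every 0 h library, while those of 24 h and 0 h overlapped. That separation was seen at 25.3% of tested genes, and the test over the 3 times did not pass (24 minus 0 h 9.63 ± 13.2 points (SE), 12 minus 0 h 25.1 ± 13.2, limma adjusted p = 0.420). Relative to autosomal coverage the ratio was lower in stimulated cells, 24.4 ± 7.04, 17.9 ± 2.64 and 13.3 ± 1.69 at 0, 12 and 24 h (SD, n = 3 each), so that the direction depended on the scaling. The acetylated stretch shared by most libraries was not at the promoter alone. Segments covered in at least 5 of the 9 libraries reached from -1.54 to 8.47 kb from the start. Others lay at 12.4 to 15.1 kb, 18.2 to 27.7 kb, 83.97 to 104 kb, 131 to 140 kb and 142 to 170 kb downstream. The last of these, chr1:106543855-106572783, is 28.9 kb long, lies towards the 3' end of the gene and was covered by a peak in all 9 libraries over at least part of its length. By the authors' total signal, the best peak of Bcl2 ranked within the top 0.963% to 3.34% of its list in all 9 libraries. H2AK119Ub at Bcl2 was 0% in all 4 libraries at 0 h and all 3 at 12 h, and 20.2%, 10.4%, 1.33%, 0% and 0.876% at 24 h. The groups of 24 and 0 h overlapped through 1 library, and the difference of 6.56 ± 3.53 points (SE) did not pass (limma adjusted p = 0.215). Suz12 and Ring1B covered at most 12.0% of the region in any library.

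Mcl1 (chr3:95656944-95663179, plus strand), a short-lived survival protein, was the gene with no Polycomb modification and no Suz12 peak in any library. Its H3K27ac coverage was 31.8%, 68.7% and 70.7% at 0 h, 83.7%, 85.1% and 70.8% at 12 h, and 84.8%, 65.8% and 49.6% at 24 h. The 12 h libraries lay above the 0 h libraries, the nearest pair being 70.8% at 12 h and 70.7% at 0 h, a separation seen at 25.3% of tested genes, and those of 24 h overlapped both. The test did not pass (24 minus 0 h 9.66 ± 14.4 points (SE), limma adjusted p = 0.508). The difference between 24 and 0 h was -2.96 points without the 0 h library of 1450 peaks, in which Mcl1 had its lowest value. Relative to autosomal coverage the ratios were 38.8 ± 8.02, 24.8 ± 6.78 and 21.4 ± 8.65 at 0, 12 and 24 h (SD, n = 3 each), again lower at 24 h. The mark covered 2 blocks in most libraries, one from 2 kb before to 3.02 kb after the annotated 5' end and one from 6.01 to 8.24 kb, past the 3' end. Ring1B touched Mcl1 in 3 of 9 libraries, at 18.6% in replicate 2 of 0 h and at 26.6% and 16.4% at 24 h. A segment of 1.63 kb shared by those 24 h libraries lay wholly within H3K27ac.

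Bcl2a1b (chr9:89199273-89207838, plus strand) codes for A1, a known NF-kB target. Mouse has near-identical copies of it, among them Bcl2a1a and Bcl2a1d, so the place of its reads is uncertain. Its H3K27ac coverage was 0%, 70.7% and 50.8% at 0 h, 58.3%, 83.7% and 76.5% at 12 h, and 84.3%, 41.6% and 59.0% at 24 h. The value of 0% came from the 0 h library of 1450 peaks, and the other values of the 3 times overlapped. The difference between 24 and 0 h of 21.1 ± 19.4 points (SE) did not pass (limma adjusted p = 0.473), and it was 0.862 points without that library. The ratio to autosomal coverage was 18.5 ± 1.79 at 24 h, against 20.0 ± 18.3 at 0 h (SD, n = 3 each). The printed promoter was at least 50% inside an H3K27ac peak in 2 of 3 libraries at 0 h, 2 of 3 at 12 h and 1 of 3 at 24 h. Per library 2.00% to 9.10% of all promoters met this at 0 h, 13.0% to 25.1% at 12 h and 15.3% to 25.2% at 24 h. At 24 h the segment shared by most libraries began 0.815 kb inside the gene, while at 0 h it began at -0.475 kb. The copy Bcl2a1a, on the list of other family genes, had 86.3% ± 5.16 coverage at 24 h, against 18.3% ± 18.3 at 0 h (SD, n = 3 each), and rose in the limma test (adjusted p = 0.0331). That call held in 9 of 17 alternatives. It was lost with scaling (0.247), with the replicate block (0.216), within 1 kb of the start (0.254), and without any 1 of the 0 h libraries, replicate 1 of 12 h or replicate 3 of 24 h (0.0678 to 0.206).

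**Figure D2:**
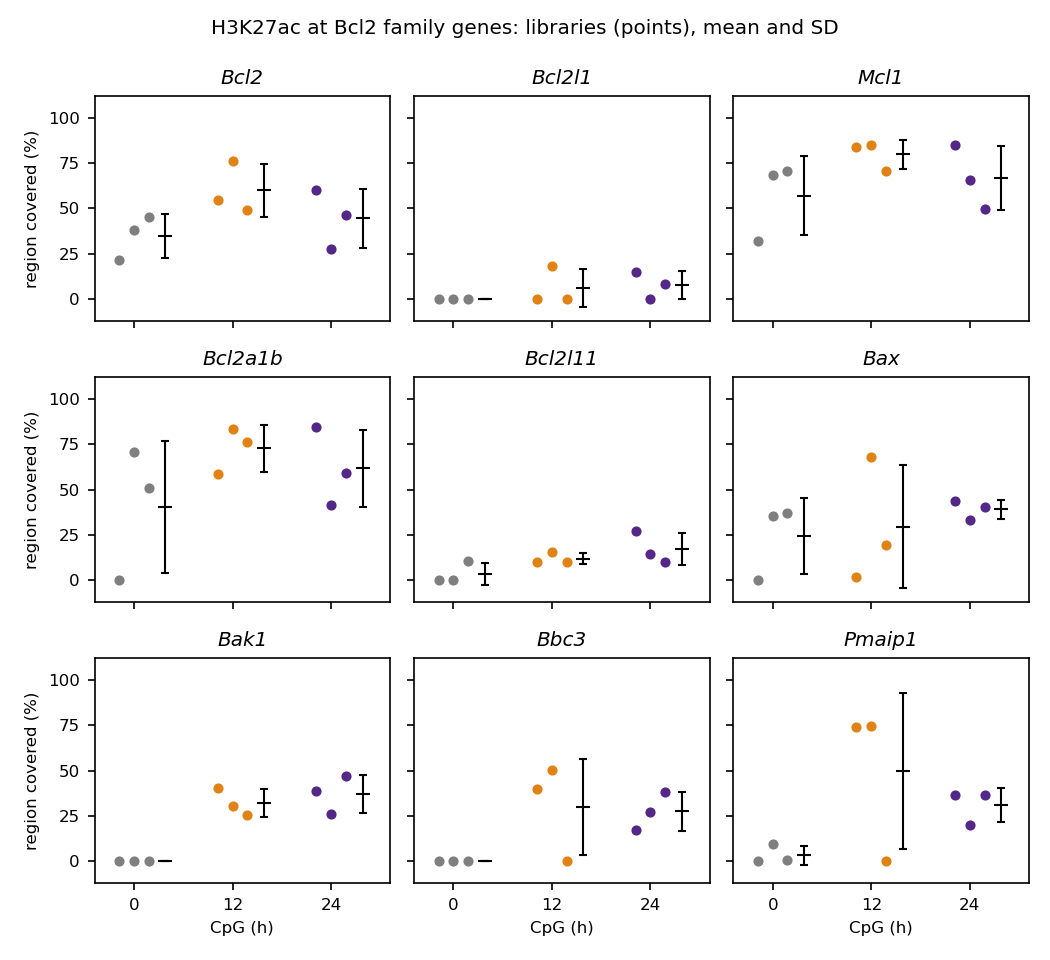
H3K27ac coverage of the 9 gene regions in percent by hours of CpG, with 1 point per library and a bar for mean ± SD (n = 3 at each time). Bak1 and Bbc3 are at 0% in all 3 libraries at 0 h, whereas Bcl2 and Mcl1 have the mark in all 9 libraries.

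Bcl2l1 (chr2:152758732-152833803, minus strand, 75.1 kb) was the anti-apoptotic gene with both Polycomb marks in its region. H3K27me3 covered 12.2%, 14.6% and 20.5% of it at 0 h, 11.6%, 14.7% and 14.7% at 12 h, and 15.3%, 14.05%, 18.4% and 21.9% at 24 h. All 3 times overlapped and the test did not pass (24 minus 0 h 1.64 ± 4.07 points (SE), limma adjusted p = 0.677). Relative to the autosomal coverage of each library the direction was the other way, with ratios of 8.93 ± 3.17, 3.38 ± 1.16 and 1.81 ± 0.194 at 0, 12 and 24 h (SD, n = 3, 3 and 4). In that scaled fit the limma adjusted p was 0.0248, but this cannot show a loss of the mark. The region's own coverage stayed within 11.6% to 21.9% in all 10 libraries, whereas the autosomal share was larger in stimulated cells. The mark did not lie at the promoter. Within the region it sat at the far 3' end, chr2:152756732-152768382, which is 65.4 to 77.1 kb from the 5' end and overlaps Cox4i2. The peaks ran on past the edge of the region. At 24 h they were 33.1 to 52.0 kb wide, with 11.1 to 17.3 kb inside the region, so the block is the margin of a longer domain. At 0 h the highest-ranked peak of each library was 7.78 to 37.1 kb wide. H2AK119Ub lay on the same end and was 6.83%, 15.1%, 15.6% and 16.05% at 0 h, 25.8%, 21.3% and 18.1% at 12 h, and 32.6%, 23.4%, 16.5%, 11.6% and 26.2% at 24 h. Every 12 h library was above every 0 h library, which was so at 31.2% of tested genes, and the 24 h libraries overlapped those of 0 h. The difference between 24 and 0 h of 8.65 ± 5.78 points (SE) did not pass (limma adjusted p = 0.375). Here too the direction turned with scaling, the ratios to autosomal coverage being 9.06 ± 4.20, 4.30 ± 0.969 and 4.26 ± 0.670 at 0, 12 and 24 h (SD, n = 4, 3 and 5; adjusted p = 0.100 in the scaled fit).

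Inside Bcl2l1, H3K27ac peaks were found in stimulated cells alone. The mark was 0% in all 3 libraries at 0 h, 18.2% in replicate 2 and 0% in the others at 12 h, and 15.1%, 0% and 8.15% at 24 h. At 24 h a segment of 6.22 kb, 38.1 to 44.3 kb from the 5' end, was acetylated in 2 of 3 libraries, and 5.58 kb of it was also covered by H2AK119Ub in 3 of 5 libraries. The H3K27ac test over the 3 times did not pass (24 minus 0 h 7.75 ± 5.24 points (SE), limma adjusted p = 0.518). Suz12 covered 5.23%, 8.33% and 5.52% at 0 h, 0%, 2.72% and 1.36% at 12 h, and 2.24%, 10.6% and 4.91% at 24 h. Each 12 h library was below each 0 h library, as at 10.5% of tested genes (limma adjusted p = 0.661). Suz12 lay at 2.04 to 3.498 kb inside the annotated gene in up to 7 of 9 libraries, which is where the second promoter is. That promoter was in a Suz12 peak in 3, 1 and 3 of 3 libraries at 0, 12 and 24 h, and in a Ring1B peak in 1, 2 and 3 of 3.

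Of the BH3-only genes, Bcl2l11 (chr2:128126038-128162547, plus strand) carried Suz12, Ring1B and H2AK119Ub at its start at all times, though Suz12 not in every library. H2AK119Ub was 8.59%, 10.4%, 24.7% and 8.48% at 0 h, 8.74%, 18.2% and 17.1% at 12 h, and 20.5%, 15.9%, 20.7%, 15.5% and 21.7% at 24 h. The 24 h libraries lay above 3 of the 4 libraries of 0 h and below replicate 3 of 0 h. The difference between 24 and 0 h was 5.82 ± 5.13 points (SE; limma adjusted p = 0.568), and relative to autosomal coverage the mean ratio was lower at 24 h, 4.02 ± 1.57, than at 0 h, 9.57 ± 8.29 (SD, n = 5 and 4). Within the region, the block shared by most libraries ran from its edge, 2 kb before the start, to 4.44 kb after the start. A peak was there in all 12 libraries. These peaks were 7.92 to 61.9 kb wide and began further upstream, within Acoxl, a gene that overlaps 5.47% of the region. The printed promoter was in an H2AK119Ub peak in 4 of 4, 3 of 3 and 5 of 5 libraries, and in a Ring1B peak in all 9. Among all promoters the share in an H2AK119Ub peak ranged from 11.3% to 32.7% per library at 24 h, against 3.48% to 7.37% at 0 h. The best Ring1B peak of Bcl2l11 at 24 h ranked within the top 0.246% to 0.286% of the 3 lists by total signal. H3K27me3 at the same place was small, at 6.91%, 0% and 6.58% at 0 h, 0% in all 3 libraries at 12 h, and 0%, 5.39%, 0% and 5.84% at 24 h, and did not pass (limma adjusted p = 0.199).

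H3K27ac was found on this block in all 6 libraries of stimulated cells. Bcl2l11 had 0%, 0% and 10.6% at 0 h, 10.3%, 15.8% and 9.98% at 12 h, and 27.1%, 14.5% and 10.1% at 24 h. The 0 h library with the mark overlapped both other times, and the test did not pass (24 minus 0 h 13.7 ± 5.91 points (SE), limma adjusted p = 0.362). At 24 h the 4.15 kb of H3K27ac at the start all lay within H2AK119Ub, and at 12 h the 4.15 kb of H3K27ac did as well. Peaks of different libraries were compared in this, so it does not show both marks on 1 molecule or in 1 cell. A second Ring1B segment, 26.4 to 27.8 kb inside the gene, was present in 3 of 3 libraries at 24 h, where 2 of 3 H3K27ac libraries also had a peak.

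Bbc3 (chr7:16308398-16318334, plus strand), whose protein Puma is induced by p53 and promotes apoptosis, was the gene that passed the test. H2AK119Ub covered 0% in all 4 libraries at 0 h, 0.165%, 22.0% and 22.0% at 12 h, and 73.8%, 70.3%, 37.2%, 22.4% and 22.3% at 24 h. The 3 times did not overlap, although the lowest of 24 h were close to the highest of 12 h. The 0.165% of replicate 1 of 12 h was 0.023 kb of a peak that ended just inside the upstream edge of the region. The separation of 12 h from 0 h thus rests on that edge. Each 12 h library lay above each 0 h library at 31.2% of tested genes. The share was 29% for 24 h above 0 h, and 4.56% for 24 h above 12 h. The mean was 45.2% ± 25.3 at 24 h, against 0% at 0 h (SD, n = 5 and 4), a difference of 45.2 ± 11.6 points (SE, limma adjusted p = 0.0271). With all 4 libraries of 0 h at the floor of 0%, any peak at 24 h lies above them. The gene also met the filter of 3 libraries through its stimulated libraries alone. The difference between 12 and 0 h was 14.7 ± 13.2 points (SE) with an unadjusted contrast p of 0.286 in limma. The gene no longer passed when the flanks were left out (adjusted p = 0.0719) or when any 1 of the 0 h libraries was left out (0.0590 to 0.0663). It passed after scaling by autosomal coverage (0.0153), in stricter lists (0.0251) and within 1 kb of the start (0.00625). At 24 h the block seen in at least 3 of 5 libraries was chr7:16306398-16312244, which is 5.85 kb long and holds all 3 promoters. The printed promoter was in an H2AK119Ub peak in 0 of 4, 0 of 3 and 5 of 5 libraries at 0, 12 and 24 h.

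No other readout of Bbc3 passed the test. Ring1B and H3K27ac had higher means at 24 h than at 0 h, and Suz12 a lower one. Ring1B, the catalytic subunit for that mark, covered 13.1%, 18.3% and 13.2% at 0 h, 0%, 45.7% and 35.2% at 12 h, and 43.8%, 58.1% and 47.9% at 24 h. The 24 h libraries lay apart from those of 0 h, as at 12.3% of tested genes, and the 12 h libraries spanned both. The difference between 24 and 0 h was 35.0 ± 12.1 points (SE; limma adjusted p = 0.542), and 0.234 was the adjusted p without the 12 h library of 18147 peaks. The printed promoter was in a Ring1B peak in 3, 2 and 3 of 3 libraries at 0, 12 and 24 h. H3K27ac at Bbc3 was 0% in all 3 libraries at 0 h, 39.7%, 50.6% and 0% at 12 h, and 17.3%, 27% and 38.4% at 24 h. Each 24 h library was above each 0 h library, as at 29.8% of tested genes, and the test did not pass (27.6 ± 12.4 points (SE), limma adjusted p = 0.278, or 0.607 without the 0 h library of 1450 peaks). All 4.12 kb of H3K27ac at 24 h lay within H2AK119Ub, as blocks seen in most libraries of each mark. In replicates 4 and 5 of 24 h the H2AK119Ub peak ended before the end of that H3K27ac block. Suz12 was 35.2%, 30.7% and 0% at 0 h, 0%, 21.8% and 18.4% at 12 h, and 12.5%, 0% and 23.8% at 24 h, so the times overlapped (limma adjusted p = 0.889). H3K27me3 was at 0% throughout.

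**Figure D3:**
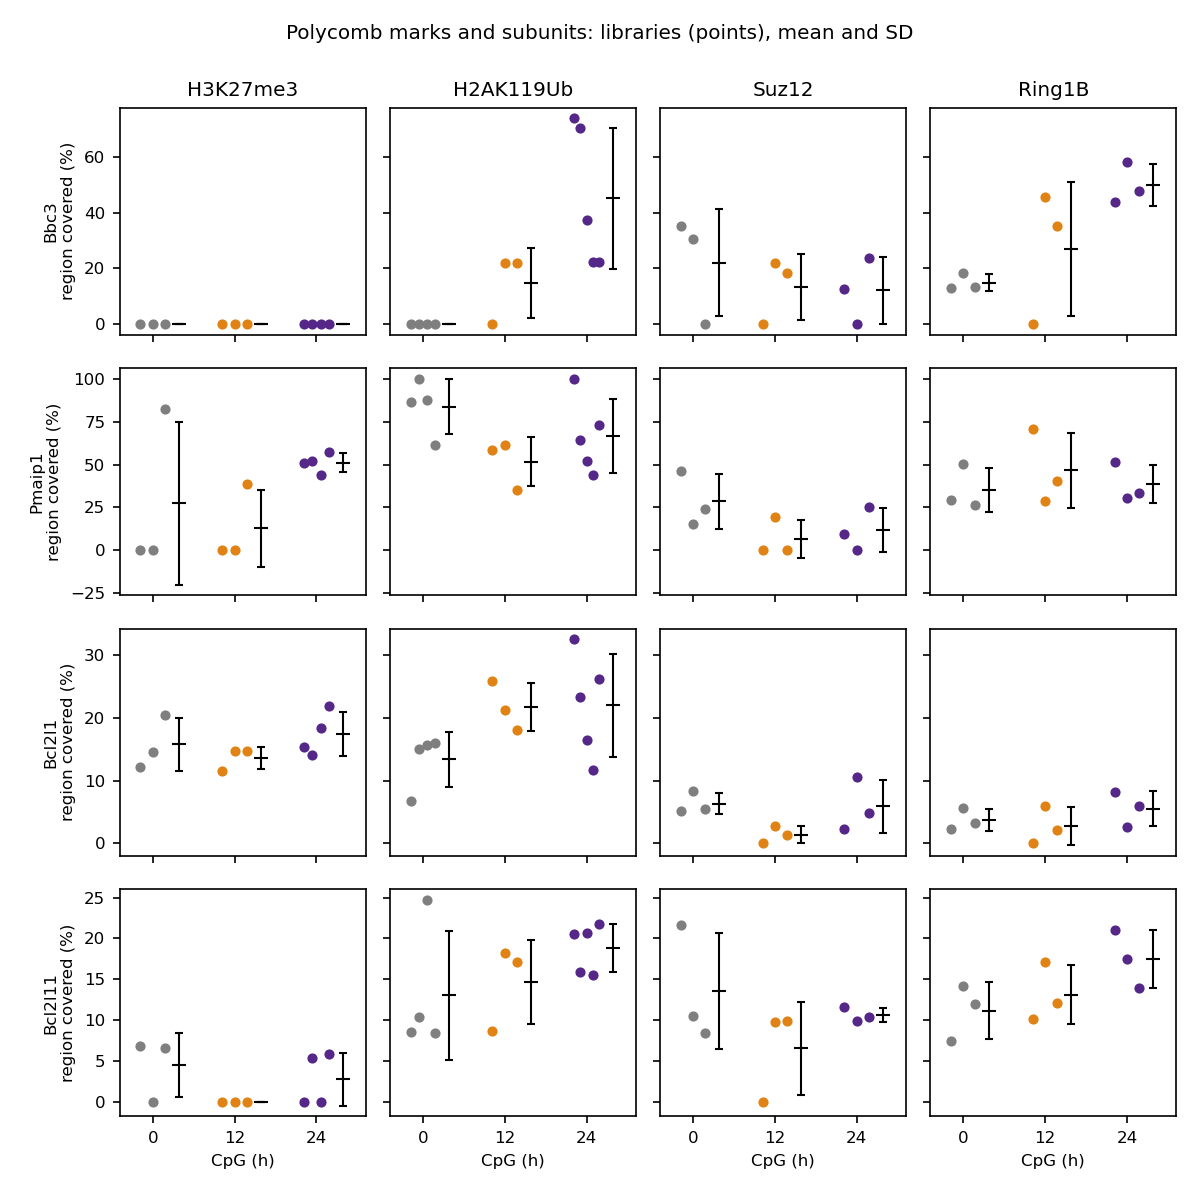
Coverage in percent by H3K27me3, H2AK119Ub, Suz12 and Ring1B peaks for Bbc3, Pmaip1, Bcl2l1 and Bcl2l11, by hours of CpG, with 1 point per library and a bar for mean ± SD. At Bbc3 the H2AK119Ub libraries are at 22.3% to 73.8% at 24 h, against 0% at 0 h, while at Pmaip1 the mark is at 61.4% to 100% at 0 h already.

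Pmaip1 (chr18:66458604-66465558), which codes for Noxa, an inhibitor of Mcl-1, was the member most covered by Polycomb marks. H2AK119Ub was 86.5%, 100%, 87.4% and 61.4% at 0 h, 58.6%, 61.2% and 35.1% at 12 h, and 100%, 64.4%, 51.9%, 43.9% and 73.3% at 24 h. Each 12 h library was below each 0 h library, the nearest pair being 61.2% at 12 h and 61.4% at 0 h, which was so at 0.506% of tested genes. The 24 h libraries overlapped both. The test did not pass (24 minus 0 h -17.1 ± 12.2 points (SE), limma adjusted p = 0.169). Relative to autosomal coverage the ratios were 55.9 ± 17.0, 9.92 ± 1.64 and 13.3 ± 3.04 at 0, 12 and 24 h (SD, n = 4, 3 and 5). The scaled fit passed with a lower value at 24 h (limma adjusted p = 0.00348), but this cannot show a loss of the mark. A region cannot be covered beyond 100%, which replicate 2 of 0 h had already reached, whereas the autosomal share was larger in stimulated cells. Even replicate 1 of 24 h, with 100% of the region covered, had a ratio below every 0 h library, the lowest of which was 42.1. H3K27me3 was 0%, 0% and 82.1% at 0 h, 0%, 0% and 38.9% at 12 h, and 50.9%, 52.2%, 44.1% and 57.2% at 24 h. All 24 h libraries were above all 12 h libraries, as at 48.5% of tested genes, and 1 library of 0 h was above them all. That library is the one that covered 3.84% of the autosomes. With it the difference between 24 and 0 h was 23.7 ± 19.3 points (SE; limma adjusted p = 0.213), and without it the difference was 51.1 points (limma adjusted p = 0.00911). It also passed in stricter lists (37.4 points, adjusted p = 0.0287), whereas after scaling the difference was -10.1 points (adjusted p = 0.883).

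Acetylation of Pmaip1 was low at 0 h. H3K27ac was 0%, 9.36% and 0.630% at 0 h, 74.2%, 74.8% and 0% at 12 h, and 36.4%, 20.3% and 36.9% at 24 h. The 24 h libraries lay above those of 0 h, as at 29.8% of tested genes, and replicate 3 of 12 h lay with 0 h. The test did not pass (24 minus 0 h 27.8 ± 18.4 points (SE), limma adjusted p = 0.316), except without that 12 h library (adjusted p = 0.0399). At 24 h the 3.99 kb of H3K27ac lay within both H3K27me3 (5.07 kb) and H2AK119Ub (6.76 kb), as blocks seen in most libraries of each mark. Ring1B covered 29.3%, 50.2% and 26.3% at 0 h, 70.6%, 28.6% and 40.6% at 12 h, and 51.3%, 30.7% and 33.6% at 24 h. These overlapped at all times (limma adjusted p = 0.910). Suz12 was 46.4%, 15.1% and 24.1% at 0 h, 0%, 19.2% and 0% at 12 h, and 9.68%, 0% and 25.3% at 24 h (limma adjusted p = 0.661).

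The effector gene Bax (chr7:45461695-45466903, minus strand), whose protein forms the mitochondrial pore, had H3K27ac and H2AK119Ub mainly at its 3' side. Many peaks there ran over the neighbouring ferritin light chain gene Ftl1, so their values may belong to both genes. H2AK119Ub was 0% in all 7 libraries at 0 and 12 h, and 41.8%, 18.1%, 0%, 16.6% and 50.5% at 24 h. Replicate 3 of 24 h was as empty as the earlier libraries. Bax met the filter of 3 libraries through its 24 h libraries alone, so its direction against 0 h was set by the filter. The difference between 24 and 0 h of 25.4 ± 8.59 points (SE) missed the threshold (limma adjusted p = 0.0542). Over the 16 alternative settings in which it could be tested, the adjusted p ranged from 0.0133 without that library to 0.128, and 4 were under 0.05. H3K27ac was 0%, 35.2% and 37.3% at 0 h, 1.85%, 67.7% and 19.4% at 12 h, and 43.7%, 33.1% and 40.4% at 24 h, which overlapped (limma adjusted p = 0.784). The segments of both marks shared by most libraries of a time lay 3.49 to 7.21 kb from the 5' end. The 1.66 kb of H2AK119Ub at 24 h was all within H3K27ac. Replicate 5 of 24 h also had an H2AK119Ub peak at the 5' side. The Bax promoter was in no H2AK119Ub peak and in an H3K27ac peak in 0, 1 and 0 of 3 libraries at 0, 12 and 24 h. It was in a Suz12 peak in 2, 1 and 0 of 3, with a shared Suz12 segment from -1.16 to 0.324 kb at 0 h. Suz12 was 46.5%, 40.1% and 0% at 0 h, 15.8%, 1.84% and 0% at 12 h, and 18.6%, 0% and 0% at 24 h (limma adjusted p = 0.661), and Ring1B lay between 2.43% and 43.6% in all 9 libraries.

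Bak1 (chr17:27019812-27028627, minus strand), the other effector gene, lies almost wholly (98.3% of its region) within Ggnbp1, so its values belong to both genes. Its H3K27ac coverage was 0% in all 3 libraries at 0 h, 40.6%, 30.3% and 25.9% at 12 h, and 38.6%, 26.3% and 47.0% at 24 h. All 6 stimulated libraries lay above the unstimulated ones, a separation seen at 25.3% of tested genes for 12 h and 29.8% for 24 h. The difference was 37.3 ± 8.27 points (SE) between 24 and 0 h and 32.3 ± 8.27 between 12 and 0 h, and the gene missed the threshold (limma adjusted p = 0.0881). Within 1 kb of its start the differences were 91.7 and 91.8 points, and there it passed (limma adjusted p = 7.01e-05). With all 3 libraries of 0 h at the floor of 0%, any stimulated peak lies above them. The gene also met the filter of 3 libraries through its stimulated libraries alone, so its direction against 0 h was set by the filter. Without the 0 h library of 1450 peaks the region's difference was the same and the adjusted p was 0.279. It passed without replicate 2 of 12 h (0.0467) or of 24 h (0.0491), and over all alternatives the adjusted p reached 0.387. The block, present in at least 5 of the 6 stimulated libraries, ran from -0.773 to 2.84 kb from the start. The printed promoter was in an H3K27ac peak in 0, 3 and 3 of 3 libraries at 0, 12 and 24 h. By total signal the best of these peaks ranked between the top 36.6% and the top 96.3% of their lists. H2AK119Ub was at 0% but for 7.51% in replicate 2 of 12 h and 29.4% in replicate 1 of 24 h.

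**Figure D4:**
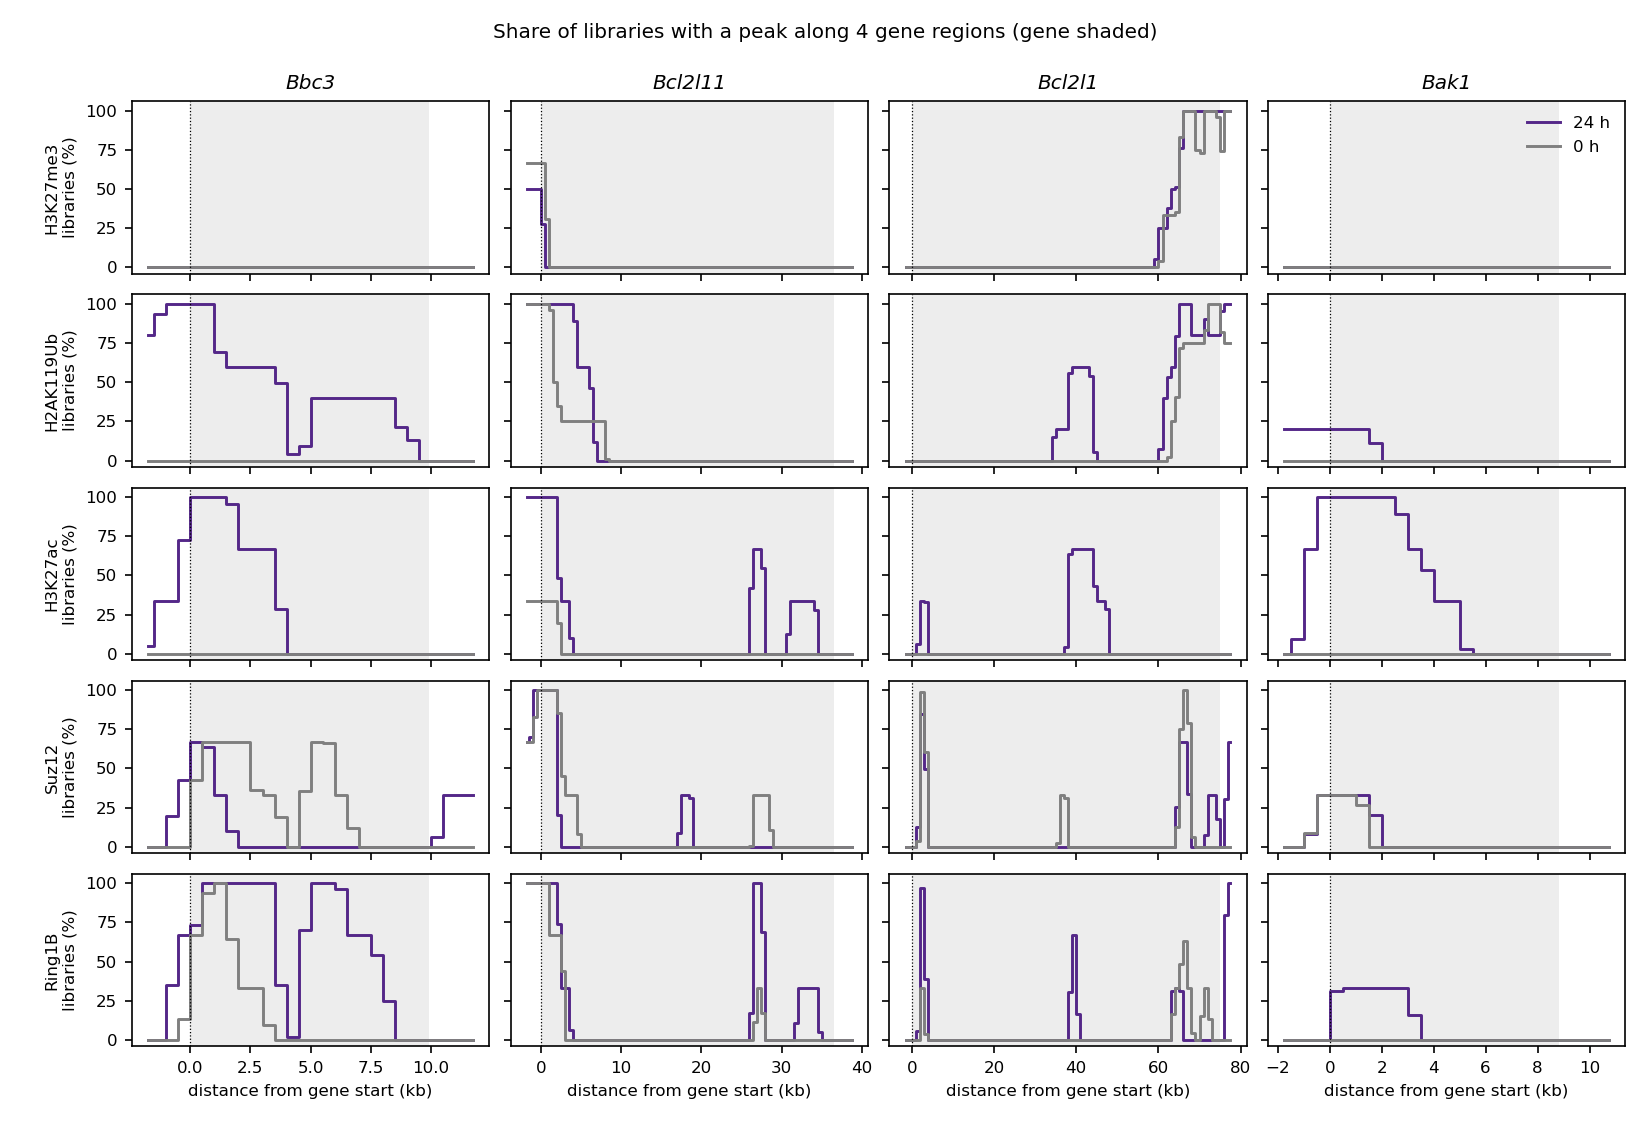
Share of libraries with a peak (percent) along Bbc3, Bcl2l11, Bcl2l1 and Bak1, in kb from the annotated 5' end, for 5 antibodies at 24 h (purple) and 0 h (grey), with the gene shaded. H2AK119Ub and H3K27ac are found at the start of Bbc3 at 24 h and not at 0 h, whereas at Bcl2l1 the H3K27me3 block is at the 3' end at both times.

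Lists of related genes give the setting of these values. Of 14 other Bcl2 family genes, 4 were tested for H3K27me3 and 2 rose, Bcl2l14 to 24.9% ± 3.93 at 24 h, against 0% at 0 h (SD, n = 4 and 3; limma adjusted p = 0.000247), and the BH3-only gene Hrk to 80.4% ± 7.11, against 34.8% ± 27.1 (adjusted p = 0.0218). In H2AK119Ub 4 of 10 rose, among them the effector-like Bok, with 47.2% ± 3.64 at 24 h, against 0% at 0 h (SD, n = 5 and 4; limma adjusted p = 0.000327). The BH3-only genes Bad, with 72.8% ± 24.6 at 24 h, against 1.62% ± 3.23 at 0 h (adjusted p = 0.00605), and Bid, with 21.2% ± 12.6, against 0% (adjusted p = 0.0207), were also among them. In H3K27ac 1 of 9 rose, Bcl2a1a, whose call held in 9 of 17 alternatives. Of 17 apoptosome and caspase genes, the X-linked Aifm1 rose among 2 tested for H3K27me3, and 3 of 10 rose in H2AK119Ub (Endog, Htra2 and Aifm1). Any part of X inactivation or of the Xist deletion in the values of Aifm1 was not tested. Of 15 death receptor genes, 0 of 6 changed in H3K27me3 and 5 of 14 in H2AK119Ub. There the adaptor gene Tradd was 94.5% ± 7.80 at 24 h, against 0% at 0 h (SD, n = 5 and 4; limma adjusted p = 6.21e-05). The receptor gene Tnfrsf10b fell to 73.2% ± 9.40 at 24 h, against 97.5% ± 4.01 at 0 h (adjusted p = 0.0251). Of 12 p53 axis genes, 4 of 4 tested rose in H3K27me3, among them Trp73, with 69.7% ± 4.62 at 24 h, against 23.9% ± 7.86 at 0 h (SD, n = 4 and 3; limma adjusted p = 0.00354), and 0 of 7 changed in H2AK119Ub. Listed genes at 0% in all 0 h libraries met the filter through stimulated libraries alone, so their direction against 0 h was set by the filter. They included Bcl2l14, Aifm1 and Zmat3 in H3K27me3. In H2AK119Ub they included Bok, Bid, Endog, Htra2, Aifm1 and Tradd. Several of the calls on these lists were lost in some alternatives. Hrk passed in 11 of 18, Bid in 12 of 18 and Tnfrsf10b in 13 of 19. Of the p53 axis genes, Trp73 passed in 15 of 18, Zmat3 in 8 of 15, Phlda3 in 6 of 17 and Aen in 5 of 18. Among all tested genes 56.5% were called higher at 24 h than at 0 h for H3K27me3, 31% for H2AK119Ub and 1.45% for H3K27ac. The split of all calls between 24 and 0 h depended on the setting. It was 6732 higher and 1 lower for H3K27me3 and 1903 and 447 with scaling. For H2AK119Ub it was 4295 higher and 41 lower, 3981 and 1045 with scaling, and 337 and 296 in lists of equal length. For H3K27ac it was 135 higher and 0 lower, and 21 and 70 in lists of equal length, with no call of either direction after scaling (2205 genes at an unadjusted p under 0.05). No gene of these lists passed for Suz12 or Ring1B.

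Over all 61 libraries the coverage pattern of each member was compared with 20430 genes more than 1 Mb away or on another chromosome, as a description in which the points share libraries and the large differences between antibodies. The pattern of Bcl2 was most like that of Xylt1 (Pearson r = 0.984), that of Mcl1 like Stoml1 (0.979) and Ikzf1 (0.977), and that of Bcl2a1b like Cd55 (0.986). The mixed patterns had lower values. Bcl2l1 was most like Dgkz (0.918), Bak1 like Tlnrd1 (0.907), Bcl2l11 like the histone gene H3c10 (0.851), Bbc3 like Abtb1 (0.850), Pmaip1 like Trmt61b (0.841) and Bax like Tm9sf1 (0.829).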

How the data were processed

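The authors deposited 1 peak list per sample, called with SEACR per the file names, with 2 signal columns (total and highest signal of a peak); these deposited signal values were used only to rank peaks within their own list. The file names give the norm relaxed setting for the histone marks and the stringent setting for Suz12 and Ring1B, and the word Cast. Neither the SEACR version nor the rule for assigning reads to an allele is stated: not given in the sources used here. Per the submitters' processing notes, tools included Trimmomatic 0.32, Bowtie2 2.3.4.1, Picard and deepTools 3.5.1, with build mm10. Sequencing depth is unknown, and the number of libraries limits precision.

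Overlapping peaks of a list were merged, and the covered percent of every RefSeq gene (GRCm38.p6, the same assembly as mm10) with 2 kb on each side was computed. A gene was tested for an antibody when at least 3 libraries had a peak in its region. Some members met this filter through stimulated libraries alone. They were Bbc3, Bax and Bcl2 in H2AK119Ub, Bak1, Bbc3 and Bcl2l1 in H3K27ac, and Bak1 in Ring1B. Their direction against 0 h was therefore set by the filter. The test was limma 3.58.1 (R 4.3.3), a moderated F-test over the 3 times with trend and robust options, with Benjamini-Hochberg adjustment over all genes tested and a threshold of 0.05. Direction was called between times where the unadjusted contrast p was also under 0.05. The fit was checked on simulated data, where it recovered a minority of the genes given a step, for every antibody simulated, so a test that did not pass does not show that coverage stayed the same. Coverage and figures came from numpy 2.4.6, pandas 2.3.3 and matplotlib 3.10.9 under Python 3.11.15. Replicates are biological by their titles and entered as separate samples. No list duplicated another: at most 0.859% of the peaks of a pair were identical.

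The 9 genes are named in full, and of each related list up to 3 genes with the smallest adjusted p per antibody. The members and lists were chosen with earlier results of these data known. Alternatives were library scaling by autosomal coverage, stricter lists, lists of equal length, other filters and regions, a replicate block, and each library left out in turn.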

Additional observations from a re-analysis of the deposited data

Results flagged for a closer look

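Among the groups of 4 or 5 libraries in which a member had a peak, those of H2AK119Ub at 0 and 24 h and of H3K27me3 at 24 h, 13 were screened for a library far from the others. The 3 found were all of H2AK119Ub. Chance flags about 1 in 20 groups where values spread continuously. That rate does not hold for groups with libraries at the floor of 0%, such as the one of Bak1. The 3 found therefore cannot be set against it. At Bcl2l1, replicate 1 of 0 h was the lowest, at 6.83% of the region, and the nearest library had 15.1%. At Bcl2l11, replicate 3 of 0 h was the highest, at 24.7%, and the nearest had 10.4%. At Bak1, replicate 1 of 24 h was the highest, at 29.4%, and the other 4 libraries of that time had 0%.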

How the results depend on the processing

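Of 33 tests of a member and an antibody, run under 524 alternative settings in all, 507 stayed on their side of the threshold, 5 lost the call and 12 gained one. The 5 losses were all of Bbc3 in H2AK119Ub (gene body only, and each 0 h library left out), and the cause was not tested. Members called numbered 0 for H3K27me3 and became 1 with library scaling (Bcl2l1, a pass that cannot show a loss of the mark) and 1 in stricter lists (Pmaip1). For H2AK119Ub the 1 became 3 with scaling, among them Pmaip1, whose scaled pass cannot show a loss of the mark. The count was 2 where at least 10% coverage counted as a peak. It was 0 in lists of equal length, where Bbc3 could not be tested, and 0 in the gene body only. For H3K27ac the 0 became 1 within 1 kb of the start (Bak1). Left-out libraries gave 0 to 1 members for H3K27me3, 0 to 2 for H2AK119Ub and 0 to 1 for H3K27ac.

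The counts over all genes depended more on the setting. For H3K27me3 (6773) they were 2363 with scaling, 293 in lists of equal length and 1550 near the start, with 4167 to 7733 when 1 library was left out. For H2AK119Ub (4595) they were 2859 in stricter lists, 689 in equal lists and 2426 near the start, with 2458 to 6682. For H3K9me3 (1219) they were 776 with scaling, 683 in stricter lists, 39 in equal lists and 162 near the start, with 890 to 1227. For H3K27ac (136) they were 0 with scaling (2205 at an unadjusted p under 0.05) and 653 near the start, with 0 to 725. For Suz12 (0) they were 1 with scaling, 160 in stricter lists, 7 in the gene body only and 1 with the 10% rule, and 0 whichever library was left out. For Ring1B (15) they were 72 with scaling, 182 in stricter lists, 126 in equal lists, 51 in the gene body only, 53 with the 10% rule, 1 with a peak in at least 1 library and 0 near the start, with 0 to 2.

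The titles do not say whether replicate numbers pair the samples. Of 58 pairs of same-numbered libraries none had deviations correlated over 0.1. With 3 to 5 libraries in each group, this cannot exclude pairing. With the replicate block 4155 genes were called for H3K27me3, 2192 for H2AK119Ub, 0 for H3K27ac and 0 for Ring1B. Bbc3 still passed in H2AK119Ub under the block (limma adjusted p = 0.0461).

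Depth is unknown, list length differs between times, and a peak list gives no level below its threshold. Differences in coverage therefore mix mark, library and threshold.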
